A study of Caenorhabditis elegans with 6 samples.

Results

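The genes described here are those named for proteins of the cytosolic ribosome. They were taken by symbol, as every gene whose single symbol begins with rps- (small, or 40S, subunit) or rpl- (large, or 60S, subunit), with the probe set of highest mean signal over the 6 arrays standing for the gene. This gave 75 of the 17118 genes on the array, 30 rps and 45 rpl genes, read by 111 probe sets. Names follow a current gene table of WBcel235, which uses the human numbering for many of them. The gene table held 78 such symbols. The 3 without a single-gene probe set were rpl-18A, rpl-37.1 and rpl-37.2, of which the last pair shared a probe set. No filter on low values was applied, so all 75 genes were tested.

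The samples were whole Caenorhabditis elegans larvae of strain N2 at the L2 stage. In the nhr-23 RNAi group (3 arrays), synchronized L1 larvae ate HT115 bacteria carrying vector L4440 with insert clone 5174 against the ligand-binding domain of nhr-23, a nuclear receptor gene needed for molting. In the control group (3 arrays), they ate the same bacteria with the L4440 plasmid alone, described as giving short nonspecific dsRNA. Each array read a pool of larvae. Both groups spent 21 hours at 20 C on 2% agarose plates, and 4 ug of total RNA per sample was labelled for single-colour Affymetrix arrays. RNAi by feeding lowers a transcript without removing the gene, and how far nhr-23 itself fell cannot be read from its 2 probe sets, which differed in opposite directions. The brighter one averaged 7.55 ± 0.10 in nhr-23 RNAi arrays and 8.04 ± 0.27 in control arrays, and the other 9.04 ± 0.49 and 6.32 ± 0.45 in the same order (log2 signal, SD, n = 3 each). Double-stranded RNA from the bacteria matches a stretch of this same gene, and whether a probe set reads it was not tested, so the groups are named as labelled. The titles call the samples biological replicates and say no more of their origin, so p-values measure the spread between these samples, which may be technical.

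The ribosome reads messenger RNA on its small subunit and joins amino acids on its large subunit. Its proteins are made in matched amounts, and in growing animals their messenger RNAs are among the most abundant. In C. elegans larvae, feeding, growth and the molting cycle all draw on this capacity, and the nutrient-sensing kinase TOR is known to favour translation.

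Levels are log2 signals as deposited, and how the arrays were brought to a common scale is not stated. A gene's value was read as relative to the other transcripts of its array, and a change of all messenger RNA per larva would not be seen. Array medians lay between 5.12 and 5.18 and array maxima between 14.12 and 14.34. Markers of whole larvae were present, with mean signals of 9.40 to 11.87 for body wall muscle, 7.25 to 12.02 for intestine, 8.98 to 9.69 for epidermis, 6.49 to 9.70 for neurons and 6.91 to 8.53 for germ line. Markers of adult yolk (2.84 to 5.68) and sperm (2.98 to 4.87) lay near or below the median gene at 5.14. In whole larvae, fewer cells of a type and less RNA per cell cannot be told apart.

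The ribosomal protein genes held most of the top of the signal range. Of the 100 genes of highest signal, 68 were rps or rpl genes, and the median rank of the 75 was 47 of 17118. Only 2 genes of the whole array were brighter than the brightest member. Median signals were 13.09 for the rps genes and 13.13 for the rpl genes, with array values between 11.12 and 13.63 for every member except rpl-42. Probes differ in how well they bind, so this is an order of signals and not of transcript numbers.

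The 3 brightest members were rpl-8, rps-3A and rps-26. The rpl-8 protein, uL2 in the common nomenclature, sits beside the peptidyl transferase centre where peptide bonds form. Its signal was 13.61, 13.58 and 13.60 in nhr-23 RNAi replicates 1, 2 and 3, against 13.59, 13.62 and 13.57 in control replicates 1, 2 and 3. The groups overlapped fully, and the log2 difference was 0.0017 (SE 0.064). The rps-3A protein is part of the small subunit's platform. It read 13.63, 13.59 and 13.52 in nhr-23 RNAi arrays and 13.62, 13.56 and 13.56 in control arrays. The rps-26 protein, which in yeast contacts messenger RNA on its way out of the small subunit, read 13.58, 13.53 and 13.55 in nhr-23 RNAi arrays and 13.62, 13.55 and 13.55 in control arrays. In both genes each group's values ran through those of the other.

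**Figure D1:**
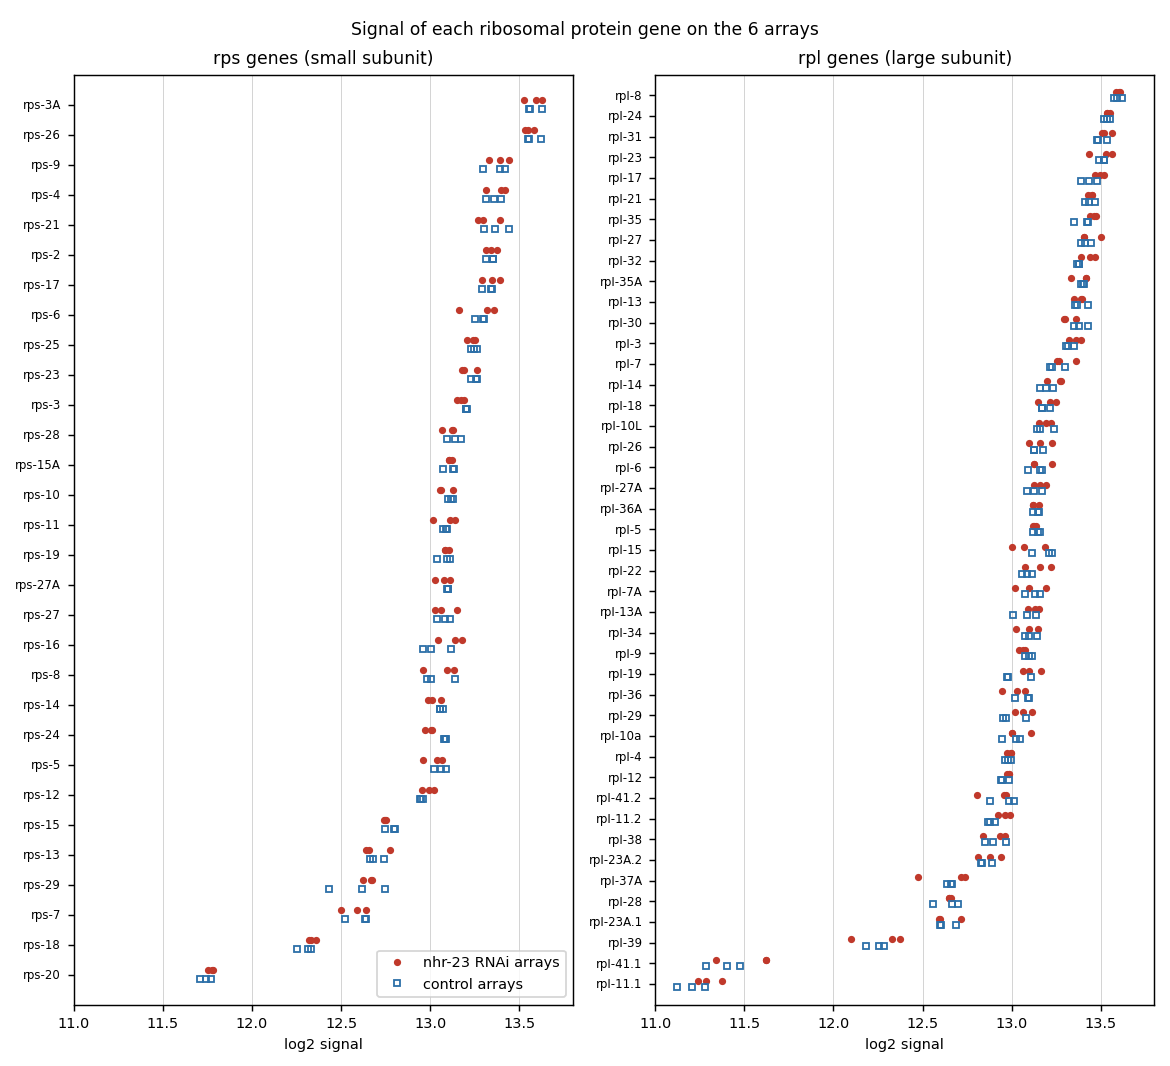
Log2 signal (x axis) of each rps gene (left) and each rpl gene except rpl-42 (right) on the 3 nhr-23 RNAi arrays (filled circles) and the 3 control arrays (open squares), ordered by mean signal. Most genes lie between 12.5 and 13.6, and the symbols of the groups lie on top of each other in nearly every row.

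At the other end, 3 members stood below the rest. The gene rpl-42 read 5.09, 4.91 and 5.04 in nhr-23 RNAi arrays and 5.06, 5.02 and 4.89 in control arrays. Its mean of 5.0 placed it at rank 8865, below the median gene, apart from every other member, and the files do not show whether it encodes a cytosolic ribosomal protein. The next lowest were rpl-11.1 and rpl-41.1, at ranks 262 and 227, which are numbered copies of brighter genes. Low signal was also found in second probe sets of well-expressed members. Another rpl-8 probe set averaged 3.59 and another of rpl-12 averaged 4.43, against 13.60 and 12.97 for the probe sets that stood for those genes. Both genes were thus read at very different levels by different probe sets.

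Signals of these genes were close to constant from array to array. All but rpl-42 lay toward the top of the scale (array maxima 14.12 to 14.34). Whether spread and differences are compressed there was not tested. The pooled within-group SD had a median of 0.042 log2 over the 75 members, against 0.127 over all genes and 0.078 over 186 other genes between the members' lowest signal without rpl-42 and their highest (11.25 to 13.60). It was below the median of all genes in 74 of 75 members and below that of the 186 in 67. The 186 crowd the dim end of that range, with a median signal of 11.88 against 13.11 for the members without rpl-42. In a narrower window, from the members' lower quartile of 12.98 to their highest signal, the median SD was 0.039 over 56 members and 0.060 over only 11 other genes. This window was chosen after seeing the data. The rps genes had a median SD of 0.036 and the rpl genes of 0.049.

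The steadiest members were rpl-24, which lies where the subunits meet, rps-3, at the entry of the messenger RNA channel, and rpl-4, which lines the polypeptide exit tunnel. Their pooled SDs were 0.013, 0.014 and 0.014. For rpl-24 the arrays read 13.53, 13.55 and 13.53 under nhr-23 RNAi and 13.52, 13.54 and 13.55 in controls. For rpl-4 they read 12.99, 12.997 and 12.97 under nhr-23 RNAi and 12.995, 12.98 and 12.97 in controls.

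The least steady were rpl-41.1, rps-29 and rpl-39, with pooled SDs of 0.134, 0.111 and 0.110. All 3 encode very small proteins, of which rpl-39 reaches into the exit tunnel and rps-29 sits in the head of the small subunit. The rps-29 values were 12.67, 12.62 and 12.67 in nhr-23 RNAi arrays and 12.43, 12.62 and 12.74 in control arrays. Control replicate 1 was thus the lowest and control replicate 3 the highest of the 6, with all nhr-23 RNAi arrays between them. The rpl-39 values were 12.38, 12.10 and 12.33 in nhr-23 RNAi arrays and 12.28, 12.185 and 12.26 in control arrays, with nhr-23 RNAi replicate 2 the lowest.

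**Figure D2:**
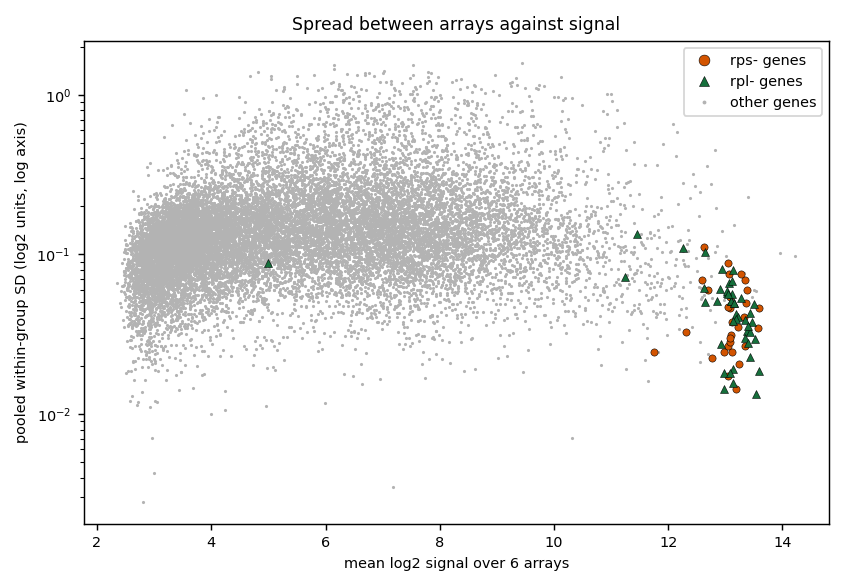
Pooled within-group SD (y axis, log2 units on a log axis) against mean log2 signal over the 6 arrays (x axis) for all genes (grey), rps genes (circles) and rpl genes (triangles). The members form a cluster at the bright end with a median SD of 0.042, and the single triangle at a signal of 5.0 is rpl-42.

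The comparison of nhr-23 RNAi with control asked which transcripts differ when the receptor's transcript is targeted. No ribosomal protein gene passed the threshold in either direction: 0 of 75 had a limma adjusted p under 0.05, against 0% of all 22548 probe sets and 0% of all genes. At an unadjusted p under 0.05 there were also 0 of 75, against 3.62% of all genes. With the replicate number as a block, 0 of 75 were called (smallest limma adjusted p 0.896), against 0.00887% of all probe sets and 0.00584% of all genes. The unadjusted count with the block was again 0, against 5.9% of all genes. The smallest limma p among the members was 0.214 unadjusted, with an adjusted p of 0.993.

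The differences were small as well as not significant. Of the 75 log2 differences, 46 were above 0 and 29 below, with a median of 0.0080, where 9529 of 17118 genes were above 0 with a median of 0.016. With arrays centred on their medians the split was 57 above and 18 below, and the median over all genes was 0.033. In the deposited values the members' differences ran from -0.095 to 0.141, so the largest was 1.103-fold. In 58 members the difference was under 0.05 log2 in size, and it reached 0.1 in 1 member, against 39.1% of all genes and 41 of the 186 other genes in the members' signal range, which were dimmer in the median. In the narrower window it reached 0.1 in 0 of 56 members and 2 of 11 other genes. The limma 95% interval lay within a 1.2-fold change either way for 69 members and within 1.5-fold for 75. The lowest bound of any member was -0.287 and the highest 0.392 log2. Intervals of this fit use a variance drawn toward that of all genes, which is larger than the members' own. In the fit whose variance follows signal strength, 74 intervals lay within 1.2-fold and 27 within 1.1-fold, and the smallest unadjusted p was 0.0857.

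Among the 186 was the cuticle collagen gene col-17, which averaged 12.52 ± 0.37 in nhr-23 RNAi arrays and 12.98 ± 0.13 in control arrays (SD, n = 3 each; log2 difference -0.46, SE 0.18, limma adjusted p = 0.993). The col-17 groups overlapped, with nhr-23 RNAi replicate 2 at 12.904 and control replicates 1, 2 and 3 at 12.913, 12.894 and 13.126. Its probe set is of a kind that may read several transcripts. In 16 of the 186 the difference was larger in size than that of any member.

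**Figure D3:**
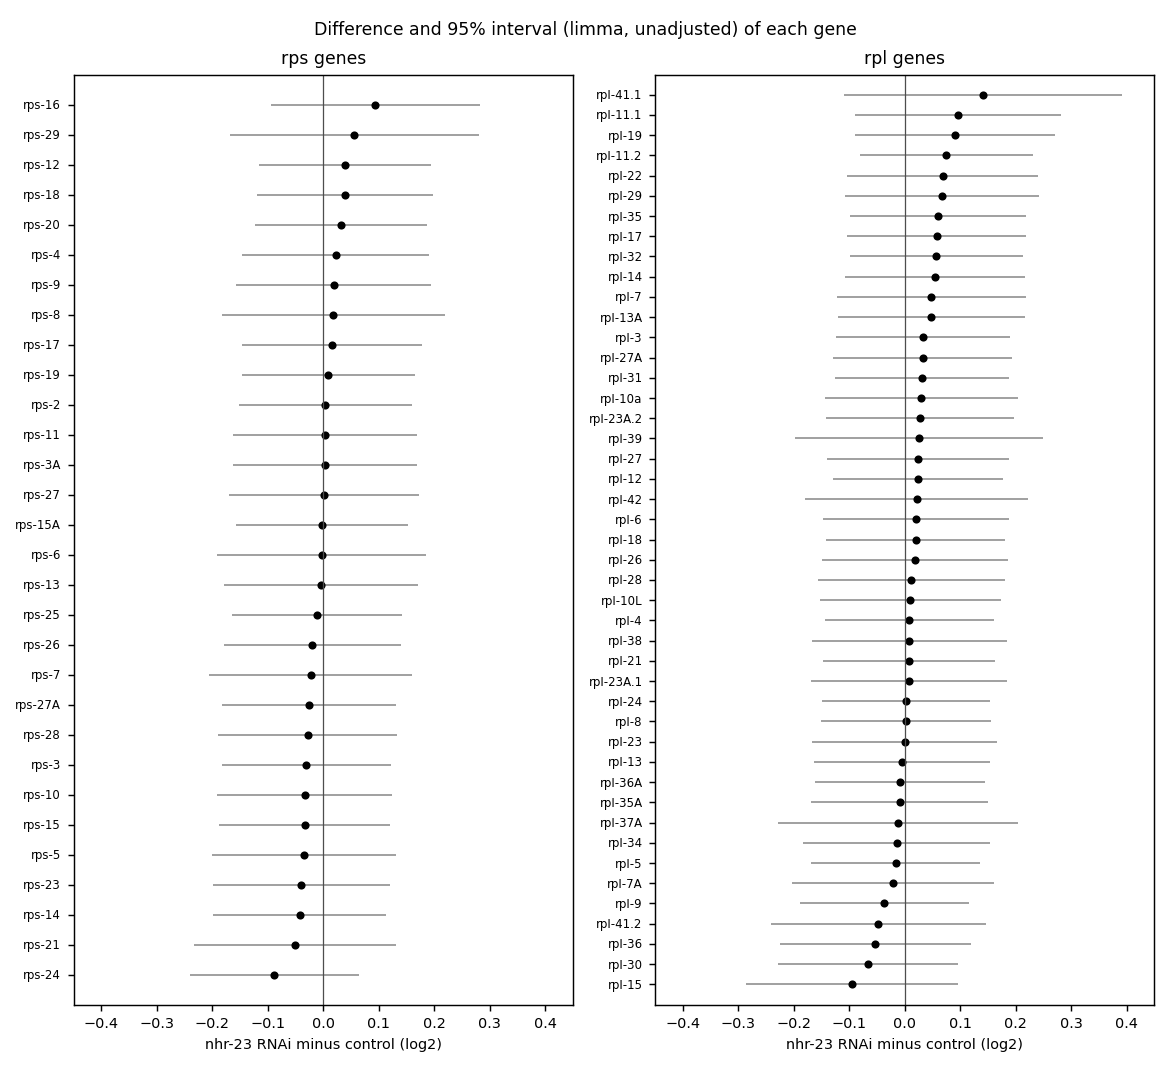
Log2 difference, nhr-23 RNAi minus control, for each rps gene (left) and rpl gene (right), with unadjusted 95% intervals from limma. Every interval crosses 0, and the points run from -0.095 (rpl-15) to 0.141 (rpl-41.1).

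In the small subunit no group of proteins had a member past the test. Of 6 on the entry and decoding side (rps-2, rps-3, rps-9, rps-15, rps-23 and fau-1, the older rps-30), 4 were below 0 and 0 passed, with a median of -0.032. Of 5 at the exit and platform (rps-3A, rps-14, rps-26, rps-28 and rpsa-1, the older rps-0), 4 were below 0 and 0 passed, with a median of -0.028. With quantile normalization the medians were -0.0118 on the entry side and -0.0307 at the exit. The median SE of a single gene in the main fit was 0.065 and 0.0675, which does not measure the uncertainty of a group median. No test was made of these medians. Both fau-1 and rpsa-1 fall outside the naming rule. In the head, 7 of 10 were above 0 and 0 passed, with a median of 0.024. The median over all 30 rps genes was -0.0026, and 0.0145 with arrays centred on their medians. The groups were assigned from the known structures of yeast and human ribosomes.

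The largest difference below 0 among the rps genes was in rps-24, whose human counterpart is mutated in some patients with Diamond-Blackfan anaemia. It read 13.01, 13.01 and 12.97 in nhr-23 RNAi arrays and 13.09, 13.08 and 13.07 in control arrays. All nhr-23 RNAi values lay below all control values, by 1.06-fold in the mean (log2 difference -0.088, SE 0.064, limma adjusted p = 0.993). Its pooled SD was 0.017. The other rps gene without overlap was rps-3, at 13.170, 13.151 and 13.191 in nhr-23 RNAi arrays and 13.198, 13.205 and 13.201 in control arrays (log2 difference -0.031, SE 0.064). A dimmer rps-3 probe set gave a difference of 0.015, in the other direction. Next in size came rps-21 (-0.051, and 0.0144 as the mean of its probe sets) and the platform protein gene rps-14 (-0.043). By their brightest probe sets both were lower in each of the 3 same-number pairs. A dimmer rps-14 probe set differed by -0.0046, with nhr-23 RNAi replicate 1 (12.81) above control replicate 1 (12.77).

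The largest differences above 0 among the rps genes were in rps-16, rps-29 and rps-12, at 0.094, 0.056 and 0.040 log2. Leaving out 1 array, they ran from 0.0599 to 0.1393 for rps-16, from -0.0258 to 0.1287 for rps-29 (lowest with control replicate 1 left out, highest with control replicate 3 left out), and from 0.0239 to 0.0574 for rps-12. The rps-16 protein has a tail that reaches the transfer RNA in the peptidyl site. The gene read 13.14, 13.04 and 13.18 in nhr-23 RNAi arrays and 13.003, 13.12 and 12.96 in control arrays (limma unadjusted p = 0.275), and without both replicate 3 arrays its difference was 0.0308. The replicate 2 arrays ran against the others, with a pair difference of -0.073 where the others were 0.135 and 0.220. A second rps-16 probe set, at nearly the same signal, differed by 0.0041. The gene rps-6 encodes the substrate of S6 kinase, a target of TOR signalling. It read 13.36, 13.32 and 13.16 in nhr-23 RNAi arrays and 13.30, 13.30 and 13.25 in control arrays, with a log2 difference of -0.0029. The gene rps-27A, which encodes a ribosomal protein fused to a ubiquitin-like domain, differed by -0.026.

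In the large subunit, the genes listed for the polypeptide exit tunnel (rpl-17, rpl-19, rpl-22, rpl-23A.1, rpl-23A.2, rpl-26, rpl-31, rpl-35, rpl-38 and rpl-39) were above 0 in 10 of 10 cases by their brightest probe sets, with 0 past the test and a median of 0.0295. With quantile normalization 9 of 10 were above 0. Other probe sets were below 0 for rpl-31 (-0.0375 and -0.0481) and rpl-26 (-0.0090). The list leaves out rpl-4, which was counted with the core. Their differences ran from 0.0072 for rpl-23A.1 to 0.091 for rpl-19. The rpl-19 protein also takes part in a bridge to the small subunit. It read 13.10, 13.07 and 13.17 in nhr-23 RNAi arrays and 12.98, 12.97 and 13.11 in control arrays, and was higher in each same-number pair, with control replicate 3 above nhr-23 RNAi replicates 1 and 2 (limma unadjusted p = 0.270). A dimmer rpl-19 probe set differed by 0.0131. The tunnel protein gene rpl-35 read 13.47, 13.44 and 13.46 in nhr-23 RNAi arrays and 13.42, 13.35 and 13.43 in control arrays. Its groups did not overlap, with a log2 difference of 0.060 (SE 0.066). In a dimmer rpl-35 probe set they overlapped, with a difference of 0.0178. The 4 genes for the peptidyl transferase region and core (rpl-3, rpl-4, rpl-8 and rpl-10L) were all above 0, by 0.0017 to 0.0325, and 0 passed, with 3 of 4 above 0 after quantile normalization.

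The 5S particle, which in yeast and mammals joins the growing large subunit as a unit of 5S RNA with the proteins of rpl-5 and rpl-11, was represented by 3 genes. The single gene rpl-5 read 13.12, 13.13 and 13.12 in nhr-23 RNAi arrays and 13.16, 13.15 and 13.12 in control arrays (log2 difference -0.0165). The gene rpl-11.2 read 12.92, 12.96 and 12.99 in nhr-23 RNAi arrays and 12.88, 12.87 and 12.90 in control arrays, without overlap (log2 difference 0.075, SE 0.066, limma adjusted p = 0.993). A second rpl-11.2 probe set differed by -0.0094. The copy rpl-11.1 read 11.24, 11.37 and 11.29 in nhr-23 RNAi arrays and 11.21, 11.12 and 11.28 in control arrays (log2 difference 0.096, SE 0.078).

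Over the 45 rpl genes the median difference was 0.019, with 32 above 0. The largest differences below 0 were in rpl-15 (-0.095), rpl-30 (-0.066) and rpl-36 (-0.053). Leaving out 1 array, they ran from -0.1461 (without nhr-23 RNAi replicate 2) to -0.0533 (without nhr-23 RNAi replicate 1) for rpl-15, from -0.0878 to -0.0448 for rpl-30, and from -0.0822 to -0.0168 (without nhr-23 RNAi replicate 3) for rpl-36. The gene rpl-15 read 13.002, 13.19 and 13.07 in nhr-23 RNAi arrays and 13.21, 13.22 and 13.11 in control arrays. It was lower in all 3 same-number pairs, although nhr-23 RNAi replicate 2 exceeded control replicate 3. The protein of rpl-30 is known in yeast for holding back the splicing of its own transcript. It read 13.30, 13.36 and 13.29 in nhr-23 RNAi arrays and 13.43, 13.38 and 13.35 in control arrays, with nhr-23 RNAi replicate 2 above control replicate 3.

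The largest difference of all was in rpl-41.1, which with rpl-41.2 encodes a tiny protein of a bridge between the subunits. It read 11.62, 11.34 and 11.62 in nhr-23 RNAi arrays and 11.40, 11.48 and 11.29 in control arrays. The log2 difference was 0.141 (SE 0.105, limma adjusted p = 0.993), and without nhr-23 RNAi replicate 2, the lowest of its group, it was 0.235. Without control replicate 3 it was 0.0899, and without both replicate 3 arrays 0.0426, where rpl-11.1 had the largest difference. The neighbouring copy rpl-41.2 read 12.965, 12.805 and 12.96 in nhr-23 RNAi arrays and 12.88, 12.98 and 13.01 in control arrays (log2 difference -0.047).

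The set holds 3 pairs of numbered copies, and their ratio within each array was compared between groups. The log2 ratio of rpl-41.1 to rpl-41.2 was -1.38 ± 0.072 in nhr-23 RNAi arrays and -1.57 ± 0.136 in control arrays (SD, n = 3 each). All nhr-23 RNAi ratios exceeded all control ratios (exact permutation test, 2-sided, p = 0.1, the smallest that 3 against 3 arrays allow; adjusted over the 3 pairs p = 0.3). The log2 ratio of rpl-11.1 to rpl-11.2 was -1.66 ± 0.063 in nhr-23 RNAi arrays and -1.68 ± 0.060 in control arrays (exact permutation p = 0.7, adjusted 0.9). That of rpl-23A.1 to rpl-23A.2, whose protein marks the tunnel exit, was -0.241 ± 0.034 in nhr-23 RNAi arrays and -0.221 ± 0.074 in control arrays (exact permutation p = 0.9, adjusted 0.9). The sequences of these probes were not used here, and copies this alike may share signal.

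In all, the groups did not overlap in 5 of 75 members (6.67%), rpl-11.2, rpl-32 and rpl-35 upward and rps-3 and rps-24 downward, against 9.48% of all genes (6.49% upward, 2.99% downward). The gene rpl-32 read 13.47, 13.44 and 13.39 in nhr-23 RNAi arrays and 13.37, 13.38 and 13.38 in control arrays, a log2 difference of 0.057. The 3 same-number pairs had the same sign in 22 members (29.3%), 12 upward and 10 downward, against 27.5% of all genes (16.8% upward, 10.7% downward). Both shares were near those of the whole array.

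Probe sets of the same gene gave a measure of how far such small differences can be read. Of 31 members with at least 2 probe sets above the median signal, 17 had probe sets on both sides of 0. Over the 31, the range from lowest to highest estimate had a median of 0.046 log2. The size of a single difference had a median of 0.026 over the 75 members, which is an unlike measure. The range was widest for rps-21, whose brighter probe set gave -0.051 and whose other gave 0.080. For rpl-9 the probe sets gave -0.037 and 0.092, and for rpl-15 they gave -0.095 and 0.012.

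**Figure D4:**
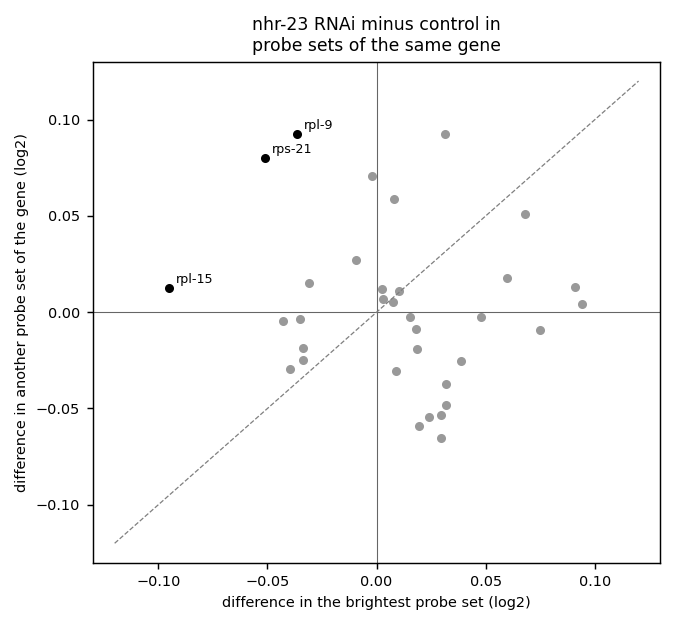
Log2 difference, nhr-23 RNAi minus control, in the brightest probe set of a gene (x axis) and in each other probe set of the same gene above a signal of 5.5 (y axis); the dashed line marks equality. Points fill all quadrants, with rps-21, rpl-9 and rpl-15 the widest apart.

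The median over the 30 rps genes was 13.12, 13.11 and 13.09 in nhr-23 RNAi arrays and 13.10, 13.11 and 13.09 in control arrays. The median over the 45 rpl genes was 13.12, 13.16 and 13.10 in nhr-23 RNAi arrays and 13.14, 13.12 and 13.12 in control arrays. The mean of the rps genes minus the mean of the rpl genes other than rpl-42 was -0.023 ± 0.011 in nhr-23 RNAi arrays and -0.0001 ± 0.017 in control arrays (log2, SD, n = 3 each). The groups overlapped, with control replicate 3 at -0.0161 and nhr-23 RNAi replicate 1 at -0.0152. Within the 3 same-number pairs this balance differed by -0.0134, -0.0348 and -0.0197, nhr-23 RNAi minus control. The labels do not state this pairing, and no test was made of the balance.

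**Figure D5:**
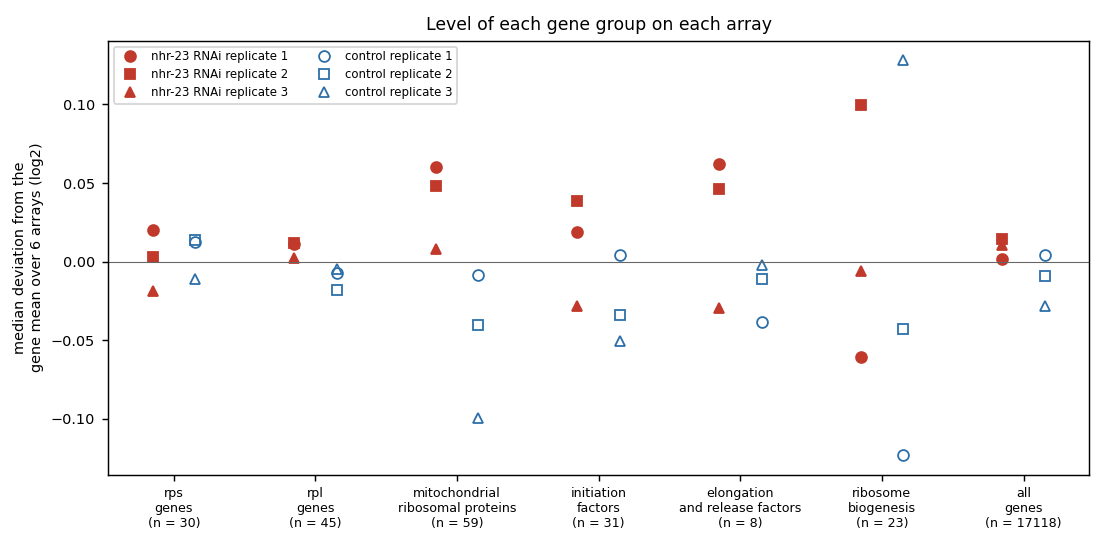
Median deviation of a gene from its own mean over the 6 arrays (y axis, log2), for each gene group (x axis) on each nhr-23 RNAi array (filled) and control array (open). The rps and rpl genes stay within 0.021 of 0 on every array, a smaller range than the mitochondrial ribosomal proteins and the genes listed for ribosome biogenesis. The rps genes run from -0.0188 to 0.0204, and all genes, about as narrow, from -0.0280 to 0.0145.

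Other genes of protein synthesis were read in the same fit, and 0 of any list passed. The acidic stalk genes rplp-0, rplp-1 and rplp-2.2, which recruit elongation factors, differed by 0.0017, 0.053 and 0.064. The ubiquitin fusion gene ubq-2 differed by -0.088 and the ribosome-bound scaffold gene rack-1 by 0.0115. Of 31 genes listed for initiation, most taken by symbol and with eif-4A3 and ifet-1 among them, 22 were above 0, with a median of 0.041. The lowest was ifg-1, the scaffold of cap-dependent initiation, at 8.499, 8.67 and 8.55 in nhr-23 RNAi arrays and 8.74, 8.77 and 8.87 in control arrays. Its groups did not overlap (log2 difference -0.225, SE 0.080, limma unadjusted p = 0.0268, adjusted p = 0.993). Of 8 elongation and release factors 7 were above 0 (median 0.037), among them eef-1A.1, which delivers transfer RNAs, at 0.029, with eef-2, the translocase, at -0.042. Genes listed for ribosome biogenesis, ncl-1 among them, were above 0 in 13 of 23 (median 0.021). Their largest difference was in nol-14, at 6.25, 6.42 and 6.25 in nhr-23 RNAi arrays and 6.01, 6.16 and 6.12 in control arrays (log2 difference 0.212, limma unadjusted p = 0.0399, adjusted p = 0.993). RNA polymerase I genes were above 0 in 3 of 6 (median 0.045), TOR and S6 kinase genes in 5 of 8 (0.069) and cytosolic aminoacyl-tRNA synthetases in 16 of 20 (0.064).

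The mitochondrial ribosomal proteins, which build the separate ribosome inside mitochondria, were read in the same fit. Of 59 genes 56 were above 0 and 0 passed, with a median difference of 0.096, against 0.0080 for the cytosolic genes. At an unadjusted p under 0.05 there were 4 of 59, against 3.62% of all genes. Their median signal was 8.27 and their median SD 0.090. Per array their median was 8.30, 8.25 and 8.36 in nhr-23 RNAi arrays and 8.19, 8.18 and 8.12 in control arrays, without overlap. The difference between the 2 sets was not tested. Markers of cell types differed beside them, by a median of 0.097 for intestine (3 of 3 above 0), 0.070 for body wall muscle (3 of 3), 0.109 for germ line (2 of 3), -0.242 for epidermis (1 of 3), -0.131 for neurons (1 of 3) and -0.076 for pharynx (0 of 3). Their part in these values was not tested.

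In the gene table of WBcel235 the 75 genes were spread unevenly over the chromosomes. Chromosome I held 23 of them (30.7%, against 14.4% of all protein-coding genes) and chromosome III 17 (22.7%, against 13.2%). Chromosome V held 7 (9.33%, against 25.0%) and chromosome X 2 (2.67%, against 13.7%). The X-linked pair, rpl-11.2 and rpl-23A.1, are the members of numbered pairs whose other copy lies on an autosome, V for rpl-11.1 and I for rpl-23A.2. Next to each other in the order of protein-coding genes lay rps-10 and rpl-24, rpl-41.1 and rpl-41.2, and rps-14 and rpl-36. By their brightest probe sets, rps-14 and rpl-36 were both lower in all 3 same-number pairs. The other 2 couples differed in sign (-0.034 and 0.0025 log2, and 0.141 and -0.047). The members' genes were short, with a median length of 756 bases against 2006 for all protein-coding genes.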

How the data were processed

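The authors deposited log2 values for 22625 probe sets on 6 Affymetrix arrays, 3 per group. The submitters' processing notes list MAS5, RMA and Partek with no version or role, so background correction and normalization are not given in the sources used here. Nothing was rescaled. After removing 77 array controls, 22548 probe sets were tested with limma 3.58.1 in R 4.3.3 (group as the only term, 2-sided, Benjamini-Hochberg, threshold 0.05). Only this group fit was also run on simulated data, with independent noise and added changes larger than any member's difference. The platform annotation gave 20766 probe sets 1 symbol, 887 several and 895 none, and 20701 took a current symbol through their Entrez identifier. Same-numbered arrays deviated together from their group means, with correlations of 0.580, 0.167 and 0.573, so the numbers were taken to pair the arrays, from the values and not from the labels. Unlike numbers gave -0.559 to 0.233, the highest for nhr-23 RNAi replicate 1 with control replicate 2, above the 0.167 of the replicate 2 pair. Between arrays, correlations lay between 0.985 and 0.997. The number of arrays limits the precision.

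Members, lists and the naming rule were chosen with earlier results of these data known. Named were numbered copies, the 3 brightest and dimmest, the 3 steadiest and least steady, the 3 largest differences each way per subunit, and the 3 widest disagreements between probe sets. Others named are members of the lists, genes whose groups did not overlap and col-17, chosen after their values were seen. Older symbols in the lists were updated by sequence name.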

Additional observations from a re-analysis of the deposited data

How the results depend on the processing

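No ribosomal protein gene was called by limma under any of the 14 alternatives. Among all probe sets they gave 0 calls too, except with the replicate block, which gave 2, neither of them a member; at an unadjusted p under 0.05 there were 833 without and 1344 with the block. The block changed no member's call. Without nhr-23 RNAi replicate 2, 1 member had an unadjusted limma p under 0.05, rpl-41.1 at 0.0415. No other alternative had such a member. Leaving out 1 array at a time, the median difference ran from -0.0146 to -0.0020 for the rps genes, 0.0128 to 0.0232 for the rpl genes and 0.0008 to 0.0088 for both. Centring each array on its median moved the rps median to 0.0145 and that of both subunits to 0.0251, by adding the same amount to every gene.

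Signs of some differences turned, rps-29 and rps-21 among the larger ones, and the cause was not tested. With quantile normalization the differences were -0.0051 for rpl-24, -0.0013 for rpl-39, -0.0055 for rpl-8 and -0.0307 for rps-3A. With the mean of all probe sets they were 0.0279 for rpl-9 and 0.0144 for rps-21, and without probe sets that may read several transcripts, which left 35 members, 0.0150 for rps-3. Without both replicate 3 arrays they were -0.0398 for rpl-42 and -0.0111 for rpl-8. Leaving out 1 array, the ranges that crossed 0 were -0.0335 to 0.0362 for rpl-23A.1, -0.0037 to 0.0605 for rpl-23A.2, -0.0060 to 0.0103 for rpl-24, -0.0284 to 0.1093 for rpl-39, -0.0873 to 0.0050 for rpl-41.2, -0.0268 to 0.0725 for rpl-42, -0.0094 to 0.0139 for rpl-8, -0.0346 to 0.0038 for rps-26, -0.0258 to 0.1287 for rps-29 and -0.0204 to 0.0318 for rps-3A. The rpl-41.1 difference ran from 0.0899 to 0.2352. The number of arrays limits what can be told apart: the median limma 95% interval of a member reached 1.12-fold either way of its estimate.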
